A study of Mus musculus with 18 samples.

Results

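Complement components and complement receptors were described in RNA of purified mouse microglia with and without normal Chd8. The members are 9 genes of 55414 in the count table, taken by name. They are the C1q chain genes C1qa, C1qb and C1qc, the components C3 and C4b, the anaphylatoxin receptor genes C3ar1 and C5ar1, and Itgam and Itgb2, whose products form complement receptor 3. All 9 passed the filter on low counts and were tested. Microglia, the resident macrophages of the brain, came from mice labelled KO or WT for Chd8, a chromatin remodeler gene of the CHD family. The 18 libraries formed 4 groups, with 5 libraries of male KO, 5 of male WT, 4 of female KO and 4 of female WT.

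The group labels give sex and genotype and nothing further about the animals. Strain, age, the Chd8 allele, the number of copies altered, and any Cre driver are not stated, and neither is the meaning of the prefix HX that all titles carry. No label says whether the libraries of a group came from separate animals, so the p-values measure the spread between these libraries, which may be technical. RNA was measured as a bulk population, and fewer cells of a type and less RNA per cell cannot be told apart in such samples.

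In the classical complement pathway, C1q recognises a target, and its activation leads to cleavage of C4 and C2 and then of C3, whose fragments coat the target. Fragments released from C3 and C5 signal through C3ar1 and C5ar1, and coated material is taken up through complement receptor 3, a pair of the integrin chains Itgam (CD11b) and Itgb2 (CD18). In the brain, microglia are a main source of C1q, and C1q, C3 and complement receptor 3 are known for their part in the removal of synapses during development.

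The assay was bulk MARS-seq, in which the 3' end of each captured poly-A RNA molecule receives a unique molecular identifier (UMI). Levels are given as CPM, UMI counts scaled to library size with TMM factors, and since a molecule is counted once whatever its length, CPM was set side by side between genes without a length correction. The libraries held 435838 to 9149144 UMIs. Reads per UMI fell into 3 separate ranges, 1.79 to 1.89 in 8 libraries (4 male KO, 3 male WT, 1 female KO), 2.94 to 3.12 in 6 (1 male KO, 2 male WT, 2 female KO, 1 female WT) and 5.52 to 7.26 in 4 (1 female KO, 3 female WT). The highest range held no male library, so the highest range and sex cannot be told apart, while the middle range held libraries of all 4 groups. Chd8 averaged 104 ± 8.48 CPM in male KO and 151 ± 12.6 CPM in male WT (SD, n = 5 each), and 123 ± 10.7 CPM in female KO and 165 ± 24.2 CPM in female WT (SD, n = 4 each). Its log2 fold change of KO over WT was -0.54 ± 0.10 in males (SE; edgeR adjusted p = 0.00171, all KO libraries lower) and -0.44 ± 0.12 in females (edgeR adjusted p = 0.0548, not called; 0.0196 to 0.437 over 28 alternatives). The female value passed with DESeq2 (0.0210) and without female KO replicate 33 (0.0196) or female WT replicate 39 (0.0196), and transcript remained in both KO groups. Whether a 3' end tag lies in the altered part of Chd8 is not known. All 5 microglial markers summed here (P2ry12, Tmem119, Sall1, Cx3cr1 and Csf1r) were detected in every group, with a summed level of 14757 to 22176 CPM per library. Summed markers of endothelial and mural cells ran from 26.2 to 43.4 CPM and of erythroid cells from 2.72 to 421 CPM. Those of lymphocytes, nearly all Cd79b, ran from 19.6 to 101 CPM.

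Most complement members did not differ by genotype or by sex past the threshold, a Benjamini-Hochberg adjusted p under 0.05 in edgeR's quasi-likelihood test over 10948 genes. C4b was higher in KO males than in WT males, and it was the only one of 9 members called in that comparison, where 3.37% of all tested genes were called higher and 2.87% lower. C3 was lower in KO females than in WT females, again 1 of 9, where 0.849% of all genes were called higher and 1.83% lower. Between the sexes, C3 and C4b were lower and Itgam was higher in WT males than in WT females, 3 of 9 against a background of 6.94% higher and 10.3% lower. In KO, C4b was lower and Itgam higher in males than in females, 2 of 9 where 2.83% of all genes were called higher and 4.27% lower. The median log2 fold change of the 9 members was 0.05 in the male and -0.00 in the female KO comparison, next to -0.01 and 0.01 over all tested genes.

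**Figure D1:**
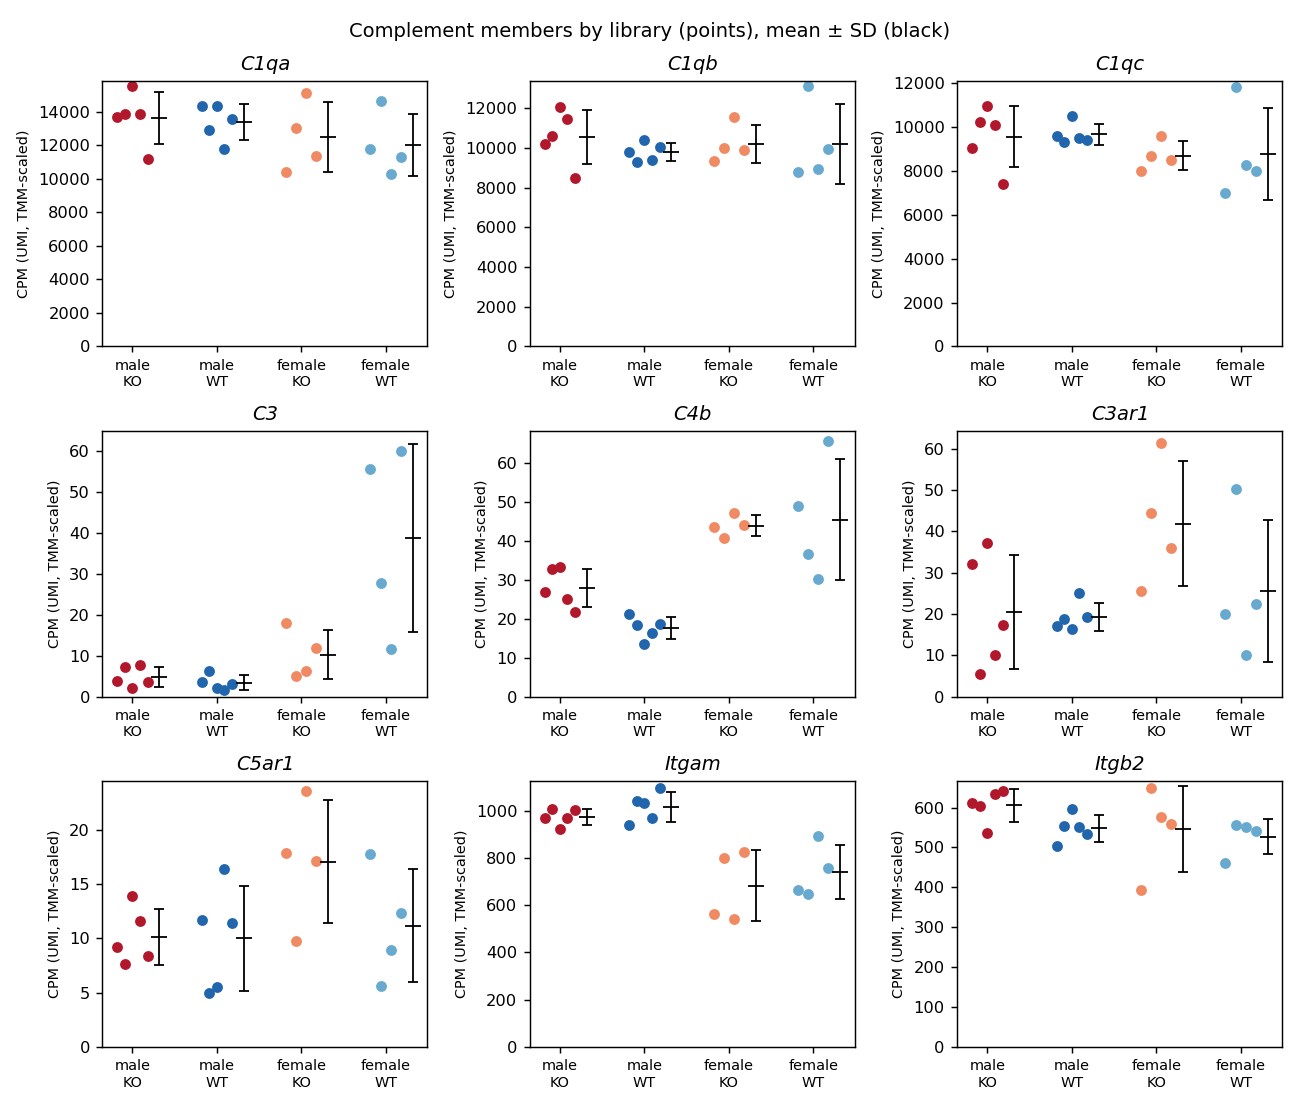
CPM of each member (vertical axis, linear, from 0) by group, with 1 point per library and the mean ± SD in black. C4b points of male KO (21.7 to 33.2 CPM) lie above those of male WT (13.4 to 21.1 CPM), and C3 reaches 60.1 CPM in female WT while no male library exceeds 7.63 CPM.

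**Figure D2:**
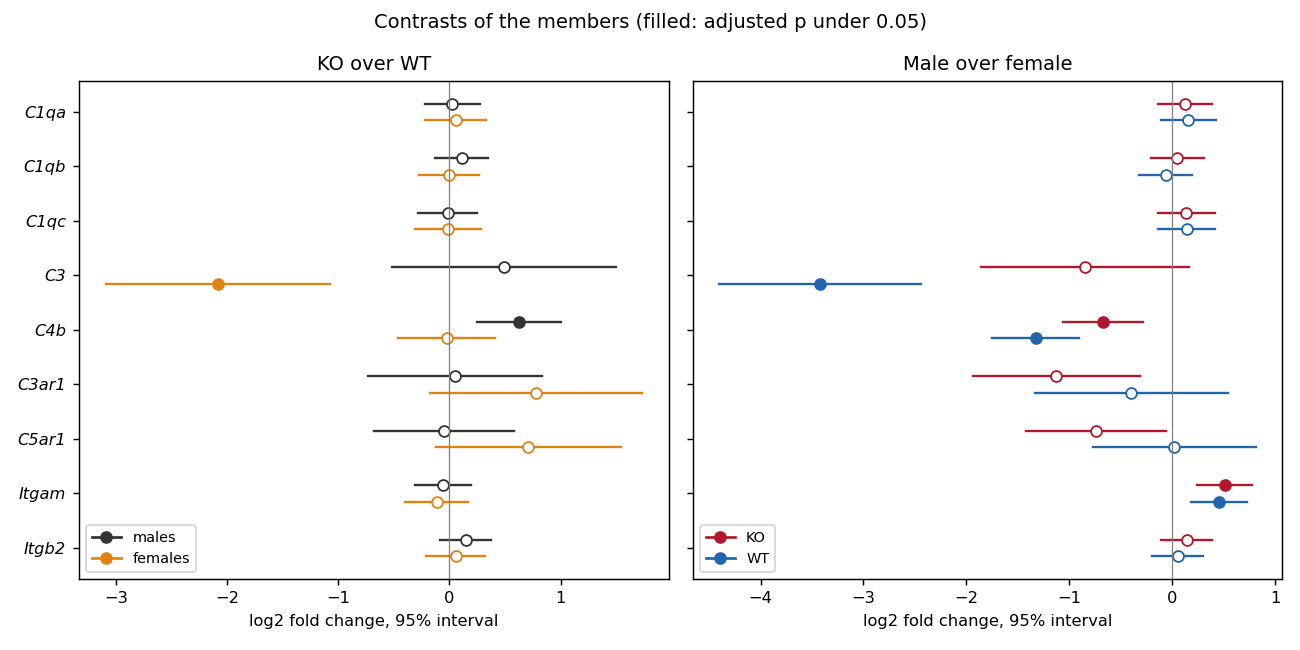
Log2 fold change of each member with its 95% interval (horizontal axis) for KO over WT, left, and male over female, right; filled circles mark an adjusted p under 0.05. C3 in females (-2.08) and C4b in males (0.63) are filled on the left, and on the right C4b and Itgam in both genotypes and C3 in WT.

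The C1q genes were among the most abundant transcripts of these microglia. By mean CPM over all libraries, C1qa, C1qb and C1qc ranked 2, 4 and 5 of the 10948 tested genes, and together they took 2.48% to 3.86% of the UMIs of a library. This share was 2.93% to 3.59% in the lowest reads-per-UMI range, 3.10% to 3.86% in the middle and 2.48% to 2.77% in the highest. The genes lie side by side on the minus strand of chromosome 4 (mm10), with C1qb at chr4:136880129-136886187, C1qc at chr4:136889804-136893065 and C1qa at chr4:136895917-136898803. Their products are the A, B and C chains of C1q, which assemble together, so each chain is needed for the whole molecule.

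C1qa stood at 13676, 13856, 15565, 13849 and 11189.6 CPM in male KO (replicates 36, 6, 9, 17 and 40), against 14339, 12916, 14373, 11794 and 13543 CPM in male WT (replicates 13, 37, 10, 11 and 14). It stood at 10404, 13049, 15132 and 11346 CPM in female KO (replicates 33, 16, 1 and 7), against 11779, 14651, 10304 and 11327 CPM in female WT (replicates 34, 39, 31 and 30). The ranges of KO and WT overlapped in both sexes, and the lowest of the 18 libraries stood at 10304 CPM. C1qb averaged 10549 ± 1374 CPM in male KO and 9781 ± 454 CPM in male WT (SD, n = 5 each), and 10190.0 ± 959 CPM in female KO and 10207 ± 2008 CPM in female WT (SD, n = 4 each). C1qc averaged 9563 ± 1384 CPM in male KO and 9674 ± 489 CPM in male WT, and 8695 ± 666 CPM in female KO and 8781 ± 2115 CPM in female WT.

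No C1q chain passed a genotype test. The log2 fold change of KO over WT in males was 0.02 for C1qa (95% interval -0.22 to 0.27), 0.11 for C1qb (-0.13 to 0.35) and -0.02 for C1qc (-0.28 to 0.25), with edgeR adjusted p of 0.961, 0.719 and 0.98. In females it was 0.06 for C1qa (-0.22 to 0.33), -0.00 for C1qb (-0.27 to 0.27) and -0.01 for C1qc (-0.31 to 0.28), with edgeR adjusted p of 0.901, 0.998 and 0.984. Unadjusted p was above 0.05 for all 3 chains in all 6 comparisons. The intervals of these 6 estimates leave room for a difference of at most 0.35 on the log2 scale in either direction. They come from the fit without a term for the reads-per-UMI range, and the highest range held 1 female KO and 3 female WT libraries.

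The chains varied together from library to library. Over the 18 libraries log2 CPM of C1qa and C1qb had a Pearson r of 0.77 and a Spearman rho of 0.84 (permutation p = 6e-05 and 5e-05, adjusted over 4 pairs 9.33e-05 and 0.0001), C1qa and C1qc 0.80 and 0.88 (permutation p = 7e-05 and 1e-05, adjusted 9.33e-05 and 4e-05), and C1qb and C1qc 0.84 and 0.82 (permutation p = 1e-05 and 0.0001, adjusted 4e-05 and 0.000133). The value 1e-05 is the smallest that 100000 permutations can give. Without the 2 libraries farthest from the median, r was 0.77, 0.81 and 0.73. Among the 8 libraries with the fewest reads per UMI r was 0.79, 0.91 and 0.81, and within the 6 of the middle range 0.84, 0.72 and 0.85. Male KO replicates 9 and 40 show the shared movement by UMI, since replicate 9 was the highest and replicate 40 the lowest of its group for all 3 chains. In replicate 40, C1qa had 3.03 reads per UMI against 1.89 in the whole library, so this order need not hold by read.

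The order of the chains depended on whether molecules or reads were counted. By UMI, C1qa exceeded C1qb in 18 of 18 libraries and C1qb exceeded C1qc in 15 of 18. By read, C1qa exceeded C1qb in 11 of 18 libraries, in 8 of 8 of the lowest, 3 of 6 of the middle and 0 of 4 of the highest range of reads per UMI. C1qb had more reads per UMI than its library as a whole in 18 of 18 libraries, C1qa in 17 and C1qc in 5. By UMI the ratio of C1qa to C1qb averaged 1.29 ± 0.05002 in male KO and 1.37 ± 0.0757 in male WT (SD, n = 5 each), and 1.22 ± 0.103 in female KO and 1.19 ± 0.103 in female WT (SD, n = 4 each). By read it averaged 1.22 ± 0.130 in male KO and 1.27 ± 0.203 in male WT, and 0.976 ± 0.160 in female KO and 0.863 ± 0.0631 in female WT. The ratio by read was thus lowest where reads per UMI were highest, and the sexes were unevenly placed over the ranges. By UMI the ratio also declined, with a mean of 1.34 in the lowest, 1.24 in the middle and 1.19 in the highest range.

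**Figure D3:**
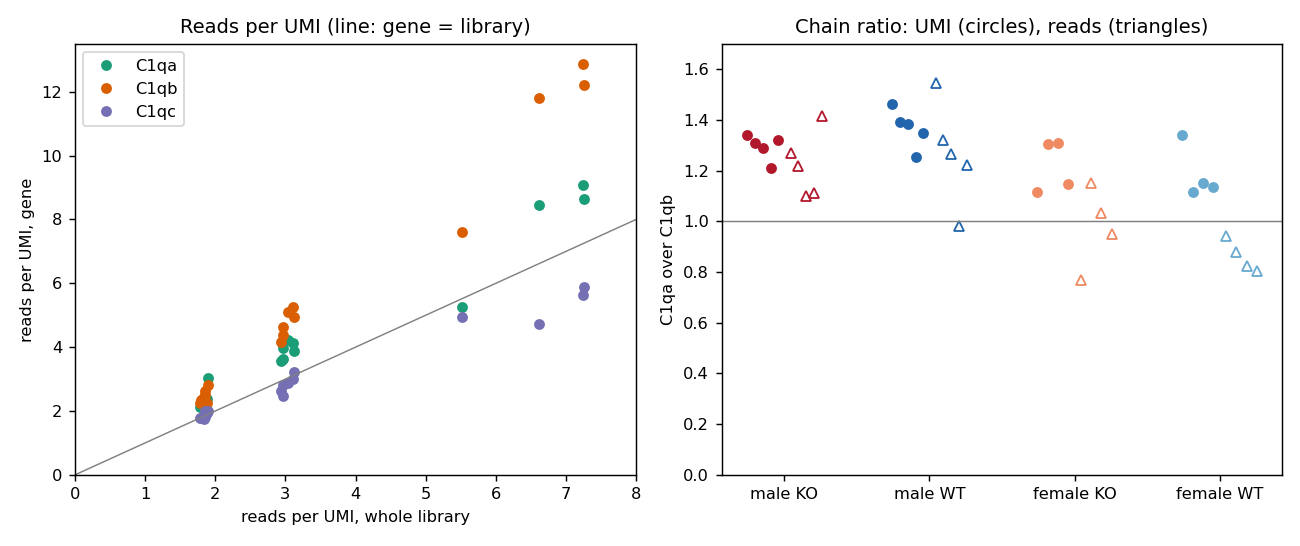
Left, reads per UMI of each C1q chain gene (vertical axis) against reads per UMI of the whole library (horizontal axis), 1 point per chain and library, with a grey line where gene and library are equal. Right, the ratio of C1qa to C1qb by library and group, by UMI (circles) and by read (triangles); all circles lie above 1, while triangles of female WT lie at 0.804 to 0.944.

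Short promoter windows of the C1q genes are shown because the chains moved together across libraries. Of 9 members, C1qb, C1qc, C3, C3ar1, C5ar1 and Itgam were matched in the RefSeq promoter table (GRCm38.p6), and C1qa, C4b and Itgb2 were not searched. The table covers 250 bases before and 50 bases after a gene's start. Letters were searched for on both strands, and the string AGGAAGT, the core of many ETS family sites such as those of the myeloid factor PU.1, was found in C1qb, C1qc and C5ar1. It was picked after matches of 13 strings, some of which overlap it, had been seen, and 9.35% of the 32851 promoters in the table hold it. In C1qb and C1qc it lies on the strand opposite to the gene, so that it reads ACTTCCT, in capitals, on the gene's own strand. The windows are at chr4:136886235-136886264 and chr4:136893091-136893120 on the minus strand, and the capitals begin at -53 and -195 relative to the RefSeq start.
C1qb: caggacctgaaACTTCCTgagggcagcagg
C1qc: ggacggcagacACTTCCTcattttggcaca
These matches describe letters only, and no binding was measured.

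C3 encodes the component at which all complement pathways meet. It was a low-count gene in these libraries, with 387 UMIs in all and 4 to 78 per library, and its level differed most in WT between the sexes. C3 stood at 3.78, 7.25, 1.98, 7.63 and 3.64 CPM in male KO, against 3.68, 6.34, 1.99, 1.73 and 3.17 CPM in male WT, in the order of replicates given for C1qa. It stood at 17.9, 5.02, 6.15 and 11.9 CPM in female KO, against 55.7, 27.9, 11.7 and 60.1 CPM in female WT. Female WT libraries were therefore the high ones, although its replicate 31, at 11.7 CPM, lay below female KO replicates 33 and 7. All 5 male WT libraries lay below all 4 female WT libraries. The gene lies at chr17:57203970-57228136 on the minus strand, where the annotation also places the microRNA gene Mir6978, which had no UMI.

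In females C3 fell in KO, by a log2 fold change of -2.08 ± 0.49 (SE; 95% interval -3.09 to -1.08; 4.24-fold lower; edgeR adjusted p = 0.0261), and 2 of 4 KO libraries lay below all WT libraries. In males the KO change was 0.49 ± 0.49 (95% interval -0.52 to 1.5; edgeR adjusted p = 0.691). Over 28 alternatives the female change ran from -2.44 to -1.67 with adjusted p of 3.15e-06 to 0.169. The call was lost with the female libraries fitted alone (0.169), on read counts (0.114), with a covariate for the reads-per-UMI range (-1.67, 0.164), and without female KO replicate 16 (0.0951), 1 (0.0754) or 7 (0.0516) or female WT replicate 34 (0.0627) or 30 (-1.67, 0.139). In WT, C3 was 10.7-fold lower in males than in females (log2 fold change -3.42 ± 0.47, edgeR adjusted p = 5.39e-05), and this call held in all 28 alternatives. In KO the male minus female difference was -0.85 ± 0.49 (edgeR adjusted p = 0.300).

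Within the middle reads-per-UMI range, which holds libraries of all 4 groups, C3 was at 1.98 CPM in male KO, at 1.73 and 3.17 CPM in male WT, at 6.15 and 11.9 CPM in female KO and at 27.9 CPM in female WT. Within the highest range it was at 17.9 CPM in female KO and at 55.7, 11.7 and 60.1 CPM in female WT. In the middle range, with 1 or 2 libraries a group, both female KO libraries were below the female WT library and all females were above all males, while the male KO library lay between the male WT libraries. In the highest range the genotypes were not separated.

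Markers of neutrophils and monocytes, blood cells that themselves can carry complement transcripts, averaged highest in female WT and next in female KO, as C3 did. The 9 neutrophil markers, all detected in every group, summed to 324 to 627 CPM in male KO and 314 to 1148 CPM in male WT, and to 988 to 5252 CPM in female KO and 2155 to 15650.4 CPM in female WT. The 8 monocyte markers summed to 29.2 to 63.2 CPM in male KO and 32.8 to 62.8 CPM in male WT, and to 82.6 to 113 CPM in female KO and 113 to 421 CPM in female WT, where Vcan was at 0. Of the female WT libraries, replicates 30 and 34 had the most C3 and the highest neutrophil sums (15650.4 and 7748 CPM), and replicate 31 had the least C3 and the lowest neutrophil sum. Female KO replicate 33, with the highest C3 of its group, also had that group's highest neutrophil sum of 5252 CPM, but its lowest monocyte sum of 82.6 CPM. Male KO replicate 17 had the highest C3 of its group, but its neutrophil sum of 358 CPM was below those of replicates 36, 6 and 9. Marker sums of border-associated macrophages, given below with C4b, also separated male WT (30.0 to 57.8 CPM) from female WT (136 to 299 CPM). In females these sums overlapped between KO (158 to 271 CPM) and WT. The part of these cells in the C3 result was not tested.

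**Figure D4:**
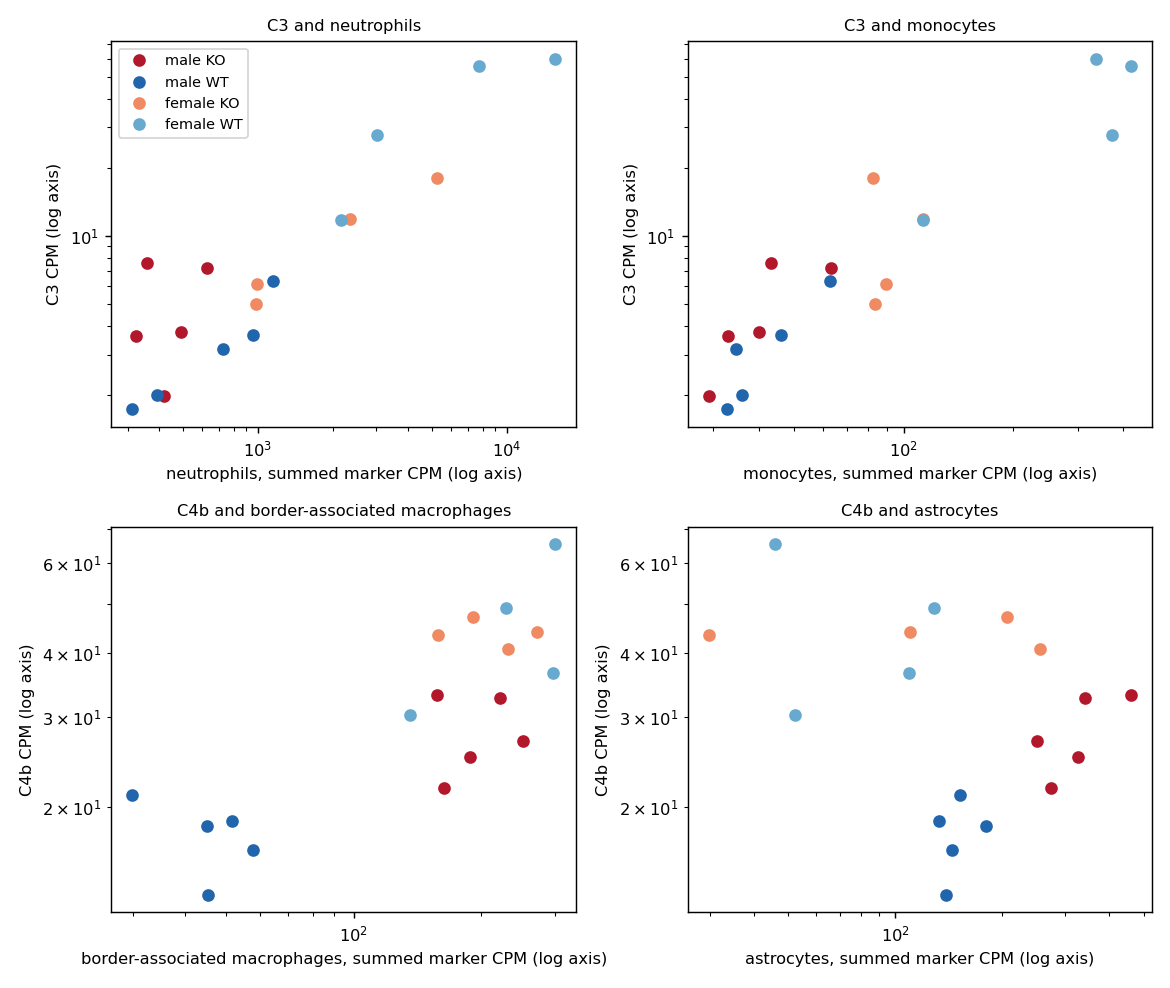
CPM of C3 (top) and C4b (bottom) in each library against the summed CPM of markers of another cell type, both axes logarithmic, coloured by group. C3 is highest in the female WT libraries with neutrophil sums of 7748 and 15650.4 CPM, and male WT libraries stand apart from all others at border-associated macrophage sums of 57.8 CPM or less.

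C4b encodes component C4, which is cleaved after C1q binds. It had 1446 UMIs in all, 17 to 215 per library, and stood at 26.9, 32.6, 33.2, 25.04 and 21.7 CPM in male KO, against 21.1, 18.3, 13.4, 16.4 and 18.7 CPM in male WT. In females it stood at 43.5, 40.7, 47.1 and 44.0 CPM in KO, against 49.0, 36.6, 30.2 and 65.5 CPM in WT. Male KO libraries were all above male WT libraries, by a narrow margin between KO replicate 40 and WT replicate 13. Female KO libraries fell inside the spread of female WT libraries, and all males of a genotype lay below all females of that genotype.

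In males C4b rose in KO by a log2 fold change of 0.63 ± 0.18 (SE; 95% interval 0.25 to 1.00; 1.55-fold higher; edgeR adjusted p = 0.0397). In females the change was -0.02 ± 0.21 (95% interval -0.46 to 0.41; edgeR adjusted p = 0.983). The male call was close to the threshold. Over 29 alternatives the change ran from 0.45 to 0.73 with adjusted p of 0.0139 to 0.436, and the call was lost on read counts (0.157), with limma-voom (0.0519), in the lowest reads-per-UMI range alone (0.55, 0.100) and without male KO replicates 6, 9 and 17 (0.45, 0.436). It was also lost without male KO replicate 36 (0.0665), 6 (0.109), 9 (0.0852) or 17 (0.0529), or male WT replicate 37 (0.0713), 10 (0.106), 11 (0.0930) or 14 (0.0727). In WT, C4b was 2.51-fold lower in males than in females (log2 fold change -1.33 ± 0.20, edgeR adjusted p = 0.000153), a call lost only with a covariate for the reads-per-UMI range (-1.10, 0.0564) among 28 alternatives with adjusted p from 2.32e-07. In KO it was 1.60-fold lower in males (-0.67 ± 0.19, edgeR adjusted p = 0.0321), and over 28 alternatives adjusted p ran from 0.0130 to 0.256. That call was lost on read counts (0.256), with the covariate (0.127), without male KO replicates 6, 9 and 17 (0.0946), and without female KO replicate 1 (0.103) or 7 (0.105) or male KO replicate 36 (0.0605), 17 (0.0701) or 40 (0.0926).

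Within the lowest reads-per-UMI range C4b was at 26.9, 32.6, 25.04 and 21.7 CPM in male KO, at 21.1, 18.3 and 13.4 CPM in male WT and at 40.7 CPM in female KO. Within the middle range it was at 33.2 CPM in male KO, at 16.4 and 18.7 CPM in male WT, at 47.1 and 44.0 CPM in female KO and at 36.6 CPM in female WT. Male KO was above male WT, and male KO was below female KO, in both ranges. Markers of other cells were set beside C4b. The 8 markers of border-associated macrophages, all detected, summed to 157 to 251 CPM in male KO and 30.0 to 57.8 CPM in male WT, and to 158 to 271 CPM in female KO and 136 to 299 CPM in female WT.

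Summed markers of neural cells were also higher in every male KO library than in every male WT library. Of 7 astrocyte markers, summed levels were 249.9 to 462 CPM in male KO and 132 to 181 CPM in male WT (Gja1 at 0), and 29.8 to 255 CPM in female KO (Aqp4 at 0) and 45.9 to 129 CPM in female WT (Gja1 at 0). Slc1a3 made up most of this sum, with 7870 UMIs over all libraries, next to 1921 for Aldoc and 764 for Slc1a2. The 6 oligodendrocyte markers summed to 191 to 784 CPM in male KO and 48.8 to 107 CPM in male WT (Mog and Opalin at 0), and to 95.5 to 161 CPM in female KO (Opalin at 0) and 58.3 to 175 CPM in female WT (Mog, Cldn11 and Opalin at 0). Here Mbp made up most of the sum, with 8829 UMIs, next to 1081 for Mobp. The 7 neuronal markers summed to 68.8 to 328 CPM in male KO and 13.2 to 37.5 CPM in male WT, and to 27.7 to 86.0 CPM in female KO and 28.8 to 116 CPM in female WT. Between the sexes in KO, all 3 neural sums averaged higher in males, while C4b was lower there. In WT males, where C4b was also lower, the astrocyte sum, mostly Slc1a3, averaged higher than in WT females (150 against 84.0 CPM). The astrocyte markers did not share 1 direction there. Of 3 tested, 1 was called higher in WT males, and their median log2 fold change of male over female was -0.67. The oligodendrocyte (63.5 against 103 CPM) and neuronal sums (22.6 against 52.5 CPM) averaged lower in WT males. The 5 microglial markers summed to 15168 to 16593 CPM in male KO and 17171 to 19700.2 CPM in male WT, and every male KO library was below every male WT library. The 6 lymphocyte markers summed to 88.0 to 101 CPM in male KO (Ms4a1 at 0) and 58.0 to 78.5 CPM in male WT, with every male KO library above. This sum was nearly all Cd79b, which had 3894 UMIs over all libraries, and the next marker, Nkg7, had 42. The part of these cells in the C4b results was not tested.

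C4b is uncertain for a further reason. It lies at chr17:34728380-34743882 on the minus strand, near its copy C4a at chr17:34809092-34823464, and over the last 300 bases of the longest C4b transcript 294 of 299 aligned bases were identical to C4a (98.3%). C4a itself had 74 UMIs. Reads of a 3' end method could be split or dropped between such copies, and how the authors' counting treated them is not given in the sources used here.

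C3ar1 encodes the receptor of the C3 fragment C3a, and its level was uneven within groups. C3ar1 stood at 32.1, 5.44, 37.1, 10.1 and 17.3 CPM in male KO, against 17.1, 18.7, 16.4, 25.1 and 19.3 CPM in male WT. It stood at 25.6, 44.4, 61.5 and 36.0 CPM in female KO, against 20.04, 50.2, 10.1 and 22.3 CPM in female WT. The male KO libraries lay on both sides of the male WT libraries, with a coefficient of variation of 67.4% against 17.7%. In females all 4 KO libraries were above 3 of 4 WT libraries, and WT replicate 39 was higher than 3 of 4 KO libraries.

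No C3ar1 contrast passed. The log2 fold change of KO over WT was 0.05 ± 0.38 in males (95% interval -0.74 to 0.83; edgeR adjusted p = 0.980) and 0.78 ± 0.46 in females (-0.17 to 1.73; edgeR adjusted p = 0.439). In KO the male over female value was -1.13 ± 0.39 (95% interval -1.94 to -0.32; edgeR adjusted p = 0.0818), and over 28 alternatives adjusted p ran from 0.000101 to 0.270. It passed with limma-voom (0.0243), with no filter on low counts (0.000101) and without male KO replicate 9 (0.0399). The female KO value passed with no filter (0.0475) and in no other of its 28 alternatives, whose adjusted p reached 0.892. C3ar1 lies at chr6:122847138-122856161 on the minus strand.

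C5ar1, the receptor gene for the C5 fragment C5a, was the least abundant member by mean CPM, with 558 UMIs in all and 7 to 83 per library. It averaged 10.1 ± 2.56 CPM in male KO and 9.99 ± 4.802 CPM in male WT (SD, n = 5 each), and 17.1 ± 5.66 CPM in female KO and 11.2 ± 5.22 CPM in female WT (SD, n = 4 each). Female KO libraries held 17.9, 9.76, 23.6 and 17.1 CPM, and female WT libraries 17.8, 5.57, 8.94 and 12.3 CPM, so that the groups overlapped. The log2 fold change of KO over WT was -0.05 ± 0.30 in males (edgeR adjusted p = 0.972) and 0.71 ± 0.40 in females (95% interval -0.12 to 1.54; edgeR adjusted p = 0.411). In KO the male over female value of -0.74 ± 0.33 had an edgeR adjusted p of 0.170, which passed in 1 of 28 alternatives, without female KO replicate 16 (0.0444), with the highest at 0.762. C5ar1 lies at chr7:16246743-16259540 on the minus strand.

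Itgam and Itgb2 encode the CD11b and CD18 chains of complement receptor 3, and CD11b is a common surface marker of microglia and other myeloid cells. Itgam was higher in males than in females in both genotypes and did not differ by genotype past the threshold. It stood at 969, 1008, 922, 970.1 and 1003 CPM in male KO, against 560.5, 801, 542 and 823 CPM in female KO. It stood at 941, 1041, 1034, 968 and 1097 CPM in male WT, against 666, 646, 895 and 757 CPM in female WT. Every male library was above every female library, and male libraries varied less.

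In KO, Itgam was 1.42-fold higher in males than in females (log2 fold change 0.51 ± 0.13, edgeR adjusted p = 0.0219), and in WT 1.37-fold higher (0.45 ± 0.13, edgeR adjusted p = 0.0202). Over 28 alternatives each, adjusted p ran from 0.00210 to 0.132 in KO and from 0.00196 to 0.332 in WT. The KO call was lost on read counts (0.0519), with KO libraries fitted alone (0.0942), with a covariate for the reads-per-UMI range (0.0887), without male KO replicates 6, 9 and 17 (0.132) and without female KO replicate 1 (0.0879). The WT call was lost on read counts (0.0738), with the covariate (0.332), and without female WT replicate 34 (0.0638) or 39 (0.0556). Within the middle reads-per-UMI range Itgam was at 922 CPM in male KO and at 542 and 823 CPM in female KO, and at 968 and 1097 CPM in male WT and 646 CPM in female WT. KO over WT was -0.06 ± 0.12 in males (95% interval -0.31 to 0.19; edgeR adjusted p = 0.875) and -0.12 ± 0.14 in females (-0.40 to 0.17; edgeR adjusted p = 0.759).

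Itgb2 averaged 606 ± 41.1 CPM in male KO and 548 ± 33.9 CPM in male WT (SD, n = 5 each), and 545 ± 108 CPM in female KO and 527 ± 44.6 CPM in female WT (SD, n = 4 each). Its log2 fold change of KO over WT was 0.15 ± 0.11 in males (95% interval -0.09 to 0.38; edgeR adjusted p = 0.568) and 0.06 ± 0.13 in females (-0.21 to 0.32; edgeR adjusted p = 0.890), and no sex contrast passed (edgeR adjusted p = 0.504 in KO and 0.812 in WT). The ratio of Itgam to Itgb2 UMIs averaged 1.61 ± 0.0769 in male KO and 1.86 ± 0.127 in male WT, and 1.27 ± 0.241 in female KO and 1.41 ± 0.189 in female WT, and it was under 1 in female KO replicate 1 only. The log2 CPM of Itgam and Itgb2 had a Pearson r of 0.50 and a Spearman rho of 0.27 over 18 libraries (permutation p = 0.0355 and 0.280, adjusted over the 4 pairs 0.0355 and 0.280). Without the 2 libraries farthest from the median r was 0.37. It was -0.27 within the lowest reads-per-UMI range (n = 8) and -0.86 within the middle range (n = 6). With each group centred on its mean r was 0.52, and it was 0.10 in males and 0.49 in females. The relation thus differed between these subsets. Itgam lies at chr7:128062640-128118491 on the plus strand and overlaps Gm49368, which had 81 UMIs, and Itgb2 lies at chr10:77530252-77565708 on the plus strand.

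Averaged over both sexes, none of the 9 members passed the KO test, where 4.37% of all tested genes were called higher and 5.13% lower. At an unadjusted p under 0.05 there were 2 members, C3 (log2 fold change -0.80 ± 0.35, edgeR adjusted p = 0.167) and C4b (0.30 ± 0.14, edgeR adjusted p = 0.191), and DESeq2 and limma-voom called 0. The share of all tested genes at that unadjusted level is not given here, so no reading is drawn from this count. Over 27 alternatives each, adjusted p ran from 0.0443 to 0.416 for C3, which passed with no filter on low counts, and from 0.0336 to 0.447 for C4b, which passed without female WT replicate 30. The difference of the KO effect between the sexes was not called by edgeR for any member either, where 0.237% of all genes were called. For C3 the KO effect in males minus that in females was 2.57 ± 0.69 (95% interval 1.15 to 4.00; edgeR adjusted p = 0.153), and for C4b 0.65 ± 0.28 (0.08 to 1.23; edgeR adjusted p = 0.484), and these 2 had an unadjusted p under 0.05. Over 27 alternatives the adjusted p of C3 ran from 0.000127 to 0.781. It passed with DESeq2 (0.0395), with no filter on low counts (0.000127) and without female WT replicate 31 (0.0190), while limma-voom called 0 members. The female C3 result and the male C4b result are therefore not shown to differ between the sexes by the edgeR test.

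The wider complement system was detected in part. Of 52 other complement genes listed, 17 had no UMI in any library, 19 had UMIs but too few to be tested, and 16 were tested. In the whole table, 24302 of 55414 genes had a UMI in these libraries and 10948 were tested. In the terminal pathway, whose proteins form the membrane attack complex, 6 of 7 genes were at 0, among them Hc, which encodes C5 and is named here after its value was seen. The 3 most abundant were genes with wider roles, the chaperone and C1q-binding protein Calr (1613 CPM over all libraries), the endocytic receptor Lrp1 (1190.3 CPM) and the C1q-binding protein C1qbp (102 CPM), and none of these passed any contrast.

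The median log2 fold change of the 16 tested genes was 0.31 in KO males and -0.06 in KO females, next to -0.01 and 0.01 over all tested genes. Among the 16, 1 was called higher and 1 lower in KO males, against the background of 3.37% and 2.87% given above. Clu, which encodes clusterin, an inhibitor of the terminal complex, stood at 21.2, 73.3, 97.1, 58.6 and 22.5 CPM in male KO and at 10.0, 18.7, 9.46, 18.4 and 7.93 CPM in male WT. All KO libraries were above all WT libraries, and replicates 6, 9 and 17, which had the highest sums of astrocyte, oligodendrocyte and neuronal markers, were also the highest for Clu. Its log2 fold change was 2.01 ± 0.40 (edgeR adjusted p = 0.00256), and it was 0.76 without these 3 libraries (adjusted p = 0.428, the highest of 29 alternatives). The microglial sum and the lymphocyte sum, which was nearly all Cd79b, also separated male KO and male WT libraries, as given beside C4b. The part of neural or other cells in this result was not tested. Csmd3, a large membrane gene of a family with complement-regulating members, was at 5.69 ± 2.66 CPM in male KO and 11.4 ± 2.61 CPM in male WT (log2 fold change -1.07 ± 0.32, edgeR adjusted p = 0.0463). That call was lost in 11 of 28 alternatives (adjusted p 0.00964 to 0.639), among them the lowest reads-per-UMI range alone (0.0582), leaving out male KO replicates 6, 9 and 17 (0.200), and leaving out female KO replicate 7 (0.0557), male KO replicate 6 (0.113), 17 (0.122) or 40 (0.166), or male WT replicate 37 (0.0754), 10 (0.0978), 11 (0.118) or 14 (0.114).

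In KO females no other complement gene was called by edgeR or limma-voom, and DESeq2 called 1, Vtn, lower. Vtn, the gene of vitronectin, an inhibitor of the terminal complex, was at 0.795 ± 0.772 CPM in female KO and 7.72 ± 6.74 CPM in female WT (edgeR adjusted p = 0.0662). For the KO effect in males minus that in females, edgeR and limma-voom called none, and DESeq2 called 2, Cfp and Vtn. Averaged over sexes, where the background was 4.37% higher and 5.13% lower, Clu (log2 fold change 1.35 ± 0.36, edgeR adjusted p = 0.0208) and Cr1l, the regulator Crry (0.37 ± 0.11, edgeR adjusted p = 0.0324), were higher in KO, and Masp1, a protease gene of the lectin pathway (-1.13 ± 0.28, edgeR adjusted p = 0.0115), was lower. The Clu call was lost without male KO replicates 6, 9 and 17 (0.142), with limma-voom (0.0799) and without female KO replicate 1 (0.0534) or female WT replicate 31 (0.0535) or 30 (0.0520), and the Masp1 call with the reads-per-UMI covariate (0.157), without male KO replicates 6, 9 and 17 (0.0510) and without female WT replicate 31 (0.0754). The Cr1l call was lost on read counts (0.312), with the covariate (0.375), without male KO replicates 6, 9 and 17 (0.0683), and without female KO replicate 16 (0.0639) or 7 (0.0663), female WT replicate 34 (0.0533) or 30 (0.0768), male KO replicate 6 (0.0509) or 40 (0.0516), or male WT replicate 13 (0.0525) or 14 (0.0635). The lowest adjusted p over the 26 or 27 alternatives was 2.63e-09 for Clu, 0.00634 for Masp1 and 0.00154 for Cr1l.

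Between WT males and WT females 5 of the 16 were called, all lower in males, where the background was 10.3% lower. Cfp, the gene of properdin, which stabilises the alternative pathway convertase, was at 11.8 ± 2.32 CPM in male WT and 60.3 ± 27.9 CPM in female WT (log2 fold change -2.28 ± 0.30, edgeR adjusted p = 3.21e-05), and its call held in all 28 alternatives. The classical pathway protease gene C2 (-1.89), the ficolin genes Fcna (-2.98) and Fcnb (-2.23) and Vtn (-2.92) had edgeR adjusted p of 0.0112, 0.00686, 0.0395 and 0.00477, and no group mean of theirs exceeded 16.0 CPM in WT. With a covariate for the reads-per-UMI range none of these 4 passed (adjusted p of 0.135, 0.0518, 0.305 and 0.262). On read counts C2 (0.243), Fcna (0.0643) and Fcnb (0.124) were lost, Fcnb also with DESeq2 (0.0626), with limma-voom (0.0521) and without female KO replicate 33 and female WT replicate 34 (0.116), and calls were also lost without female WT replicate 31 for C2 (0.0741), without female WT replicate 30 for Fcna (0.0559), and without female WT replicate 34 (0.124) or 30 (0.144) or male WT replicate 13 (0.0836), 11 (0.0799) or 14 (0.0653) for Fcnb. The lowest adjusted p over 26 or 27 alternatives was 0.00258 for C2, 0.000840 for Fcna, 0.000135 for Fcnb and 0.000307 for Vtn. The neutrophil, monocyte and border-associated macrophage sums given above were also lower in every male WT library than in every female WT library. The part of these cells was not tested. In KO, where the background was 2.83% higher and 4.27% lower, Clu was higher in males than in females (1.66 ± 0.45, edgeR adjusted p = 0.0291), and C5ar2, the second C5a receptor gene, was lower (-0.85 ± 0.21, edgeR adjusted p = 0.0177). The Clu call was lost on read counts (0.165), with limma-voom (0.0516), with KO libraries fitted alone (0.0977), without male KO replicates 6, 9 and 17 (0.40, 0.650) and without female KO replicate 16 (0.0525) or 7 (0.126) or male KO replicate 6 (0.0648), 9 (0.0618) or 17 (0.0565), and the C5ar2 call on read counts (0.155), with KO libraries fitted alone (0.0942), with the covariate (0.0702), without those 3 male KO libraries (0.0809) and without female KO replicate 1 (0.115) or 7 (0.0783), with lowest values of 4.51e-09 for Clu and 0.00345 for C5ar2.

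**Figure D5:**
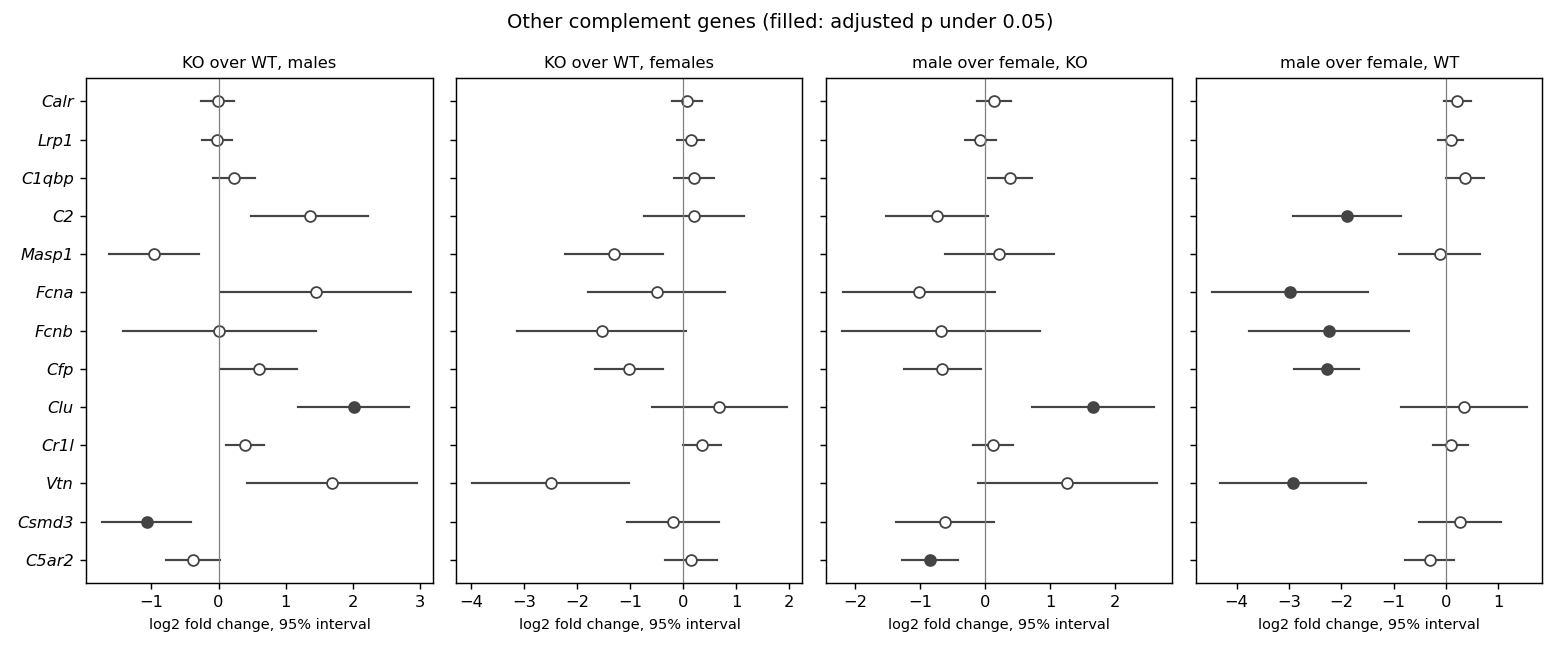
Log2 fold change with 95% interval (horizontal axis) of the 13 named complement genes that are not members, for KO over WT in males and in females and for male over female in KO and in WT; filled circles mark an adjusted p under 0.05. In males Clu (2.01) and Csmd3 (-1.07) are filled, in females none, and in WT 5 genes lie below 0.

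Genes with the most similar pattern were named for each member by Pearson r of log2 CPM over the 18 libraries, among 8499 tested genes. These values are descriptions, and the libraries share depth, reads-per-UMI range and sex. C3 was most like Anxa2 (0.97) and Cyp4f18 (0.97), and C4b most like Oas2 (0.91) and Cd163 (0.90), and Cd163 is in the border-associated macrophage list. Rab3il1 (0.84) was named for C1qa, C1qb was most like Rps2 (0.80) and Bak1 (0.76), and C1qc most like Atp5g3 (0.85) and Inppl1 (0.79). C3ar1 was most like Slc12a2 (0.82) and Spag9 (0.81), and Eri3 (0.77) was named for C5ar1. Itgam was most like Hnrnph1 (0.95) and Rpf1 (0.94), and Itgb2 most like Fcgr2b (0.94) and Fut8 (0.92), and no gene was named for more than 1 member.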

How the data were processed

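Bulk MARS-seq libraries of 18 mouse microglia samples were used, 30 ng of RNA each per the labels. The authors deposited whole-number counts per gene in a table of reads and a table of UMI-corrected counts, unscaled. The submitters' processing notes name cutadapt, STAR, HTSeq and the build mm10, without versions. No source used here gives the annotation release, the strand setting or how UMIs were corrected. Another 16 library columns in each table belong to none of the 18 samples and were left out.

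Gene symbols and coordinates came from GENCODE M21 (GRCm38, the assembly of mm10) and matched 52081 of 55414 identifiers. UMI counts were filtered with filterByExpr by group (10948 genes), scaled by TMM and fitted over 4 groups and 18 libraries with edgeR 4.0.16 (R 4.3.3), with a two-sided quasi-likelihood test, Benjamini-Hochberg adjustment over all tested genes, and a call at adjusted p under 0.05. Intervals are 95%. Marker sums were scaled by library totals alone. Depth was 435838 to 9149144 UMIs per library, and low-count members are the least precise. Pair correlations used 100000 permutations (SciPy 1.17.1). The alternatives were read counts, RLE scaling, DESeq2 1.42.0, limma-voom (limma 3.58.1), other filters, subsets of libraries, a reads-per-UMI covariate (under 2.4, 2.4 to 4, over 4) and leaving out each library.

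The text names all 9 members, every other listed complement gene that was called plus the 3 most abundant, the 2 most similar genes per member (mean log2 CPM at least 3), the marker lists and Chd8. A few genes that this rule or the lists name are not reported here. Members and lists were chosen with earlier results of these data known. Promoter sequences are from RefSeq (GRCm38.p6).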

Additional observations from a re-analysis of the deposited data

Results flagged for a closer look

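For each of the 9 members in each of the 4 groups, the highest and the lowest library were compared with the rest of the group by Dixon's rule, 36 gene and group pairs in all, of which chance alone would mark about 1 in 20. In 2 pairs a library stood far from the others. C1qc in male WT replicate 10 was the highest of its group at 10531 CPM, and its gap to the next library was 0.787 of the group's range. Itgb2 in female WT replicate 34 was the lowest of its group at 461 CPM, with a gap of 0.841 of the range, and that library held 458075 UMIs, the second fewest of the 18. Neither library changed the call of its gene, since no contrast of C1qc or Itgb2 passed with or without it.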

How the results depend on the processing

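Of 1503 member values recomputed under 32 alternative settings, 1455 kept their direction or stayed uncalled, 38 lost the call, 10 gained it and 0 called values reversed; in 115 the sign differed with neither value called. For 15 further gene and contrast pairs (other complement genes and Chd8), 342 of 410 values held, 65 lost the call and 3 gained it. The number of members called for KO in males (1) was 0 on read counts, with limma-voom, within the lowest reads-per-UMI range and without male KO replicates 6, 9 and 17, and 0 to 1 leaving out single libraries. For KO in females (1) it was 0 on read counts, with females fitted alone and with the reads-per-UMI covariate, 2 with no low-count filter, and 0 to 1 leaving out single libraries. Averaged over sexes (0) it was 1 with no filter, and for the difference between sexes (0) it was 1 with DESeq2 and 1 with no filter, and both ran from 0 to 1 leaving out single libraries. For male against female in WT (3) it was 1 with the covariate, 2 on read counts and 2 to 3 leaving out single libraries. In KO (2) it was 0 on read counts, with the covariate and without male KO replicates 6, 9 and 17, 1 with KO fitted alone, 3 with limma-voom and with no filter, and 0 to 3 leaving out single libraries. The cause of these changes was not tested, beyond the smaller number of libraries where libraries were left out. Chd8 in males lost its call on read counts (adjusted p = 0.0754) and without male KO replicates 6, 9 and 17 (0.0879). No paired analysis was possible because the groups share no replicate numbers. Depth limits C3 and C5ar1 most, with as few as 4 and 7 UMIs in a library.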
